A study of Mus musculus with 2 samples.

Results

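A set of 10 mRNAs published as direct targets of miR-182-5p in other tissues was followed in regenerating mouse liver: *Foxo1*, *Foxo3*, *Mitf*, *Pdcd4*, *Rasa1*, *Mtss1*, *Cttn*, *Fbxw7*, *Bcl2* and *Cyld*. They were picked by gene name, and all 10 are among the 34745 genes listed in the data. Poly(A) mRNA libraries were made from total liver RNA of miRNA-182 KO and WT mice, males of 8 to 10 weeks, on day 3 after 2/3 partial hepatectomy (PH), and each genotype had 1 library. The KO mice were heterozygous and kept 1 intact allele, and no restriction of the knockout to the liver or to hepatocytes is named in the study's methods. How many mice entered each library is not given in the sources used here.

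A miRNA guides an Argonaute protein to mRNAs that pair with its seed, which are bases 2 to 8 from its 5′ end, mostly in the 3′ untranslated region (UTR). The bound mRNA is translated less and is often degraded faster. Loss of a miRNA is therefore predicted to raise the mRNAs that it represses directly, and the question was which of the 10 were higher in the KO liver. miR-182-5p is made from a gene cluster together with miR-96-5p and miR-183-5p, best known from sensory organs, and in cancer cells it has been studied for its action on FoxO transcription factors and MITF.

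The mature sequences of the cluster from RefSeq (GRCm38.p6, chromosome 6, minus strand) are shown to make the seeds comparable, with the seed in capitals.
mmu-miR-182-5p: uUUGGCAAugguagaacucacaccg
mmu-miR-96-5p: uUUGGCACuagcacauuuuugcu
mmu-miR-183-5p: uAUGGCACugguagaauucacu
The seeds of miR-182-5p and miR-96-5p differ in their last base alone. None of the 3 miRNA genes is among the genes listed, so the level of the miRNA itself was not checked here.

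The seed of miR-182-5p pairs with the letters TTGCCAA in an mRNA. A match followed by A is an 8-base match (TTGCCAAA). The 7-base forms are TTGCCAA without that A, called m8, and TGCCAAA without the first T, called A1. A 6-base match is TGCCAA alone. Each is counted once, as its longest form, and on the sense strand of the UTR. In the longest annotated 3′ UTR of each gene (GENCODE M21, GRCm38), 6 of the 10 genes had an 8-base match: *Foxo1*, *Foxo3*, *Mitf*, *Rasa1*, *Mtss1* and *Cttn*. *Fbxw7*, *Bcl2* and *Cyld* had 7-base matches at best. *Pdcd4* had no match of 6 bases or more in its 3′ UTR of 717 bases. Among all 20743 genes with an annotated 3′ UTR, 4.26% held an 8-base match and 17.6% a match of 7 or 8 bases. Long UTRs hold more of them. Among tested genes, an 8-base match was found in 0.800% of UTRs in the quintile with the shortest UTRs and 12.2% in that with the longest. Published targets are partly chosen for such matches, so their presence here is a description.

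The sites are shown with the match in capitals and up to 30 bases in all, since they are the places where these mRNAs could pair with the seed. The coordinates are those of the match, on GRCm38.
Mtss1 A1 match at chr15:58943154-58943160, minus strand: ttttctgaaggTGCCAAAttccatttaact
Mtss1 m8 match at chr15:58942337-58942343, minus strand: gtctagcaattTTGCCAAtgtgcttaccaa
Mtss1 8-base match at chr15:58941498-58941505, minus strand: aatataaactgTTGCCAAAttcaatgtaga
Rasa1 first 8-base match at chr13:85216028-85216035, minus strand: ctcctttgctcTTGCCAAAaagaaaaaaat
Rasa1 second 8-base match at chr13:85215763-85215770, minus strand: agtatatccaaTTGCCAAAgttttgctgtc
Foxo3 first 8-base match at chr10:42186251-42186258, minus strand: gagaaaaccctTTGCCAAAtctgctctcag
Foxo3 second 8-base match at chr10:42185432-42185439, minus strand: gcctctgcccgTTGCCAAAtgccacgaatg
Foxo1 8-base match at chr3:52350882-52350889, plus strand: tgtgtttgctcTTGCCAAAagctgccggag
Mitf 8-base match at chr6:98020941-98020948, plus strand: accttctgactTTGCCAAAaactgtgcaag
Cttn 8-base match at chr7:144436110-144436117, minus strand: ctgtgttctttTTGCCAAAtatgttcagtt
Fbxw7 first m8 match at chr3:84978129-84978135, plus strand: cttttttttttTTGCCAAccattgccaatg
Fbxw7 second m8 match at chr3:84978139-84978145, plus strand: tttgccaaccaTTGCCAAtgtcaatcaatc
Bcl2 m8 match at chr1:106542951-106542957, minus strand: cgaaccaggaaTTGCCAAgaaacgtgtggc
Cyld m8 match at chr8:88749754-88749760, plus strand: ttattttatgtTTGCCAAgtgcttaggtaa
*Rasa1* and *Foxo3* held 2 8-base matches each, and *Mtss1* held 3 matches of different forms. *Foxo1*, *Mitf* and *Bcl2* each held a further A1 match and *Cttn* an m8 match, not printed here. In *Rasa1* and *Foxo3* the first match lay 69 and 73 bases into the 3′ UTR, close to the stop codon. The 8-base match of *Foxo1* began 3901 bases into a UTR of 6240 bases. Some annotated transcripts of *Foxo3*, *Mitf*, *Fbxw7*, *Bcl2* and *Cyld* lack the matches: 2 of 4 annotated UTRs of *Foxo3* and 1 of 5 of *Mitf* held a match of 7 or 8 bases. The counts are per gene and do not tell these transcripts apart.

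**Figure D1:**
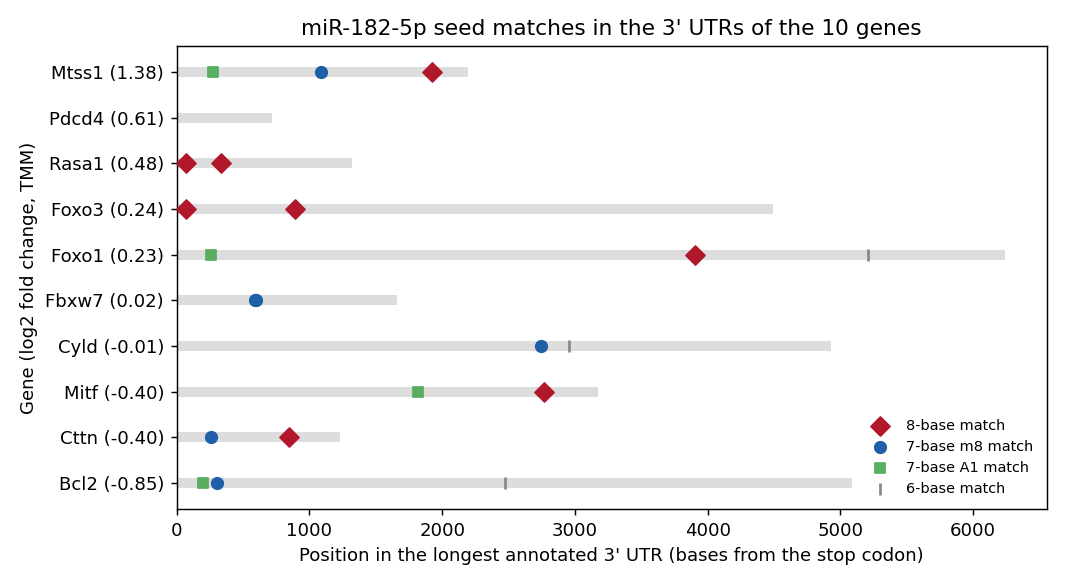
The longest annotated 3′ UTR of each gene is drawn to scale as a grey bar, in bases from the stop codon, with the miR-182-5p seed matches as symbols by type. Genes are ordered by their log2 fold change (KO over WT, TMM scaling, in parentheses), from Mtss1 at 1.38 at the top, with 3 matches, to Bcl2 at -0.85, and Pdcd4 has no match.

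*Pdcd4* carried an A1 match before its UTR instead, 1069 bases upstream of it, in the coding sequence.
Pdcd4 A1 match at chr19:53909403-53909409, plus strand: aggaagggggcTGCCAAAgaaaggtggtgc
*Cttn* was the other gene of the 10 with a match of at least 7 bases before the UTR, beside the 2 in it.

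The 10 genes differed widely in level. Levels are given as the authors' FPKM, which account for gene length and for the total count of a library. In the WT library *Mtss1* was the most abundant at 16.2 FPKM, followed by *Cttn* at 5.22, *Foxo1* at 2.63, *Pdcd4* at 2.08, *Foxo3* at 1.78, *Rasa1* at 1.41, *Fbxw7* at 1.22 and *Cyld* at 1.04. *Bcl2* at 0.333 and *Mitf* at 0.300 were the lowest. *Mtss1* stood at percentile 88.1 of the tested genes by WT FPKM and *Mitf* at percentile 14.2. The 95% exact Poisson intervals of neighbours in this order did not overlap between *Mtss1* and *Cttn*, between *Cttn* and *Foxo1*, and between *Cyld* and *Bcl2*. All other neighbours could not be ordered at this depth. In the KO library *Mtss1* was again the highest at 27.9 FPKM, and *Bcl2* the lowest at 0.120.

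**Figure D2:**
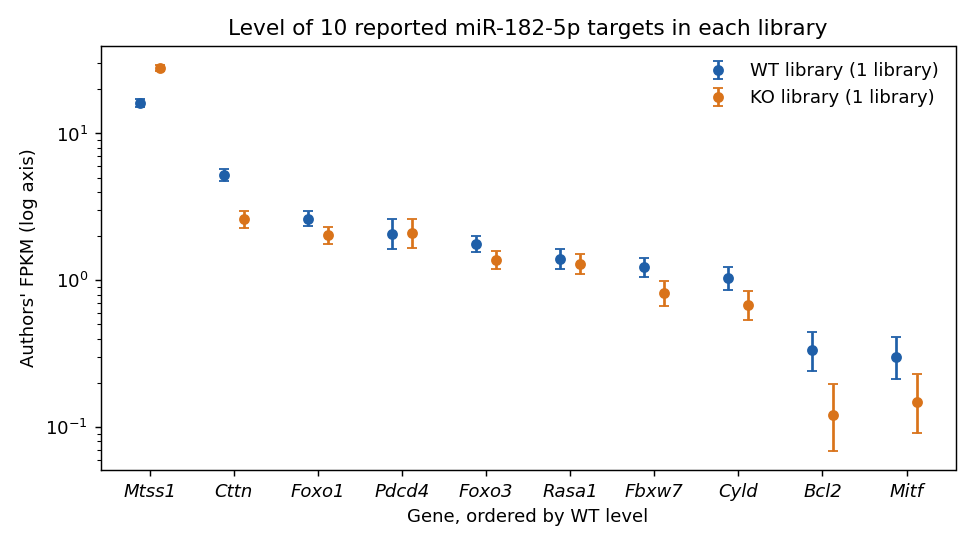
Authors' FPKM of each gene (log axis) in the WT library (blue) and the KO library (orange), with 95% exact Poisson intervals that cover counting error only. Mtss1 is the gene whose KO point lies clearly above its WT point, 27.9 against 16.2 FPKM, while Cttn lies at 2.60 against 5.22.

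How the libraries are scaled decides the sign for *Foxo1*, *Foxo3*, *Rasa1* and *Fbxw7*. Total counts were 13247497 for KO and 13163348 for WT, but the 13 listed mitochondrial genes held 51.7% of them in KO and 31.0% in WT. TMM scaling limits the weight of such genes and put the median log2 fold change of the 13561 tested genes (at least 10 counts over both libraries) at 0.00. Total-count scaling, on which the FPKM rest, put it at -0.60, so that each gene stood lower by 0.60 than with TMM. Log2 fold changes below are KO over WT with TMM and a prior count of 0.5, with 95% exact binomial intervals, and p-values are from two-sided exact binomial tests of the 2 libraries, adjusted over all tested genes by the Benjamini-Hochberg method. With 1 library per genotype these tests cover the sampling of reads alone. They compare the libraries and not the genotypes.

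Of the 10 genes, 3 were higher in KO past counting error at an adjusted p threshold of 0.05 (*Mtss1*, *Pdcd4* and *Rasa1*), against 22.8% of all genes tested. Lower was 1 gene (*Cttn*), against 23.8% of all genes. A difference of at least 2-fold was reached upward by *Mtss1* alone, where 9.46% of all genes passed, and downward by 0 of the 10, where 9.94% passed. By sign alone, 6 of 10 stood above 0, the direction that loss of repression would predict, as did 6783 of the 13561 genes. The median of the 10 was 0.12, and that of all genes 0.00. With total counts 1 gene was higher past counting error (*Mtss1*), where 6.47% of all genes were, 7 were lower, where 58.2% were, and 2 of 10 stood above 0, as did 2479 of all genes. At least 2-fold higher with total counts were 0 of the 10 (4.60% of all genes), and at least 2-fold lower were 2 (*Cttn* and *Bcl2*, 26.6% of all genes). In both scalings 6 of the 10 stood above the median of all genes.

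*Mtss1* (ENSMUSG00000022353, chr15:58941244-59082026, minus strand) encodes a scaffold protein that binds actin and curves membranes. It had 1832 KO and 1058 WT counts. The KO library was the higher one by counts, by FPKM and by either scaling. The log2 fold change was 1.38 (1.27 to 1.49, adjusted p = 7.77e-141, exact binomial test), a 2.61-fold difference, and with total counts it was 0.78 (0.67 to 0.89). Among the 623 tested genes with an 8-base match, 29 had a log2 fold change at or above that of *Mtss1*, itself included. Among the 357 of them with at least 200 counts over both libraries, 8 did. *Mtss1* stood at percentile 95.5 of the 623, close to its percentile of 94.2 among all tested genes. A 2-fold rise was reached by 3.92% of the 357. Among all tested genes with an annotated 3′ UTR and at least 200 counts, 3.81% reached it.

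*Rasa1* (ENSMUSG00000021549, chr13:85214780-85289029, minus strand) encodes a GTPase-activating protein that switches Ras off. It had 153 KO and 165 WT counts, similar numbers in libraries of similar size. With TMM the log2 fold change was 0.48 (0.16 to 0.81, adjusted p = 9.59e-03, exact binomial test), and with total counts it was -0.12 (-0.45 to 0.21). It shares 12 exonic bases with *Ccnh* on the other strand, which had 90 and 199 counts. Whether reads were counted by strand is not given in the sources used here.

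*Pdcd4* (ENSMUSG00000024975, chr19:53892231-53929861, plus strand) encodes an inhibitor of the translation initiation helicase eIF4A. It had 78 KO and 77 WT counts, which is no difference before scaling. With TMM the log2 fold change was 0.61 (0.14 to 1.08, adjusted p = 0.0256, exact binomial test), and with total counts it was 0.01 (-0.46 to 0.48). Its interval overlapped that of *Rasa1*, so that the 2 could not be ordered.

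The FoxO factors are the best studied of these targets. They turn on genes of gluconeogenesis, cell cycle arrest and stress resistance, and insulin signaling through Akt keeps them out of the nucleus. *Foxo1* (ENSMUSG00000044167, chr3:52268336-52353221, plus strand) had 233 KO and 300 WT counts, and a log2 fold change of 0.23 (-0.03 to 0.48). *Foxo3* (ENSMUSG00000048756, chr10:42181841-42276755, minus strand) had 205 and 262 counts, and a log2 fold change of 0.24 (-0.03 to 0.51). Neither passed the test with TMM, with adjusted p = 0.141 and 0.151 from the exact binomial test. The TMM intervals leave room for a rise of up to 1.39-fold for *Foxo1* and 1.42-fold for *Foxo3*. With total counts both pointed the other way, at -0.37 (-0.63 to -0.12) and -0.36 (-0.63 to -0.09). In that scaling both were lower past counting error (adjusted p = 6.11e-03 and 0.0134, exact binomial test), where 58.2% of all genes were.

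*Cttn* (ENSMUSG00000031078, chr7:144435733-144471009, minus strand) encodes cortactin, which stabilises branched actin at the cell cortex. It had 218 KO and 435 WT counts. The KO library was lower by either scaling, opposite to the predicted direction, and its UTR holds an 8-base and an m8 match. The log2 fold change was -0.40 (-0.65 to -0.17, adjusted p = 2.36e-03, exact binomial test), and with total counts it was -1.004 (-1.25 to -0.77). Of the 51-base words in its longest transcript, 3.37% occur in other annotated genes, the highest share among the 10.

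*Fbxw7* (ENSMUSG00000028086, chr3:84815268-84979198, plus strand) encodes the substrate receptor of an SCF ubiquitin ligase that marks cyclin E, Myc and Notch for degradation. It had 112 KO and 167 WT counts, and a log2 fold change of 0.02 (-0.34 to 0.37). *Cyld* (ENSMUSG00000036712, chr8:88697028-88751945, plus strand) encodes a deubiquitinase that restrains NF-κB signaling. It had 79 and 120 counts and a log2 fold change of -0.01 (-0.44 to 0.41). Both sat at the middle of all genes, and counting error alone leaves a change of up to 1.29-fold for *Fbxw7* and 1.33-fold for *Cyld* in the predicted direction undetected.

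*Bcl2* and *Mitf* were too scarce for a firm value. *Bcl2* (ENSMUSG00000057329, chr1:106538178-106714274, minus strand), which encodes the founding inhibitor of mitochondrial apoptosis, had 16 KO and 44 WT counts. Its log2 fold change was -0.85 (-1.79 to -0.01, adjusted p = 0.0897, exact binomial test), the lowest of the 10. *Mitf* (ENSMUSG00000035158, chr6:97807052-98021349, plus strand), a transcription factor of melanocytes and osteoclasts that also drives lysosomal genes, had 20 and 40 counts, with a difference of -0.40 on the log2 scale (interval -1.26 to 0.40, adjusted p = 0.492). Both were lower in the KO library before scaling.

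**Figure D3:**
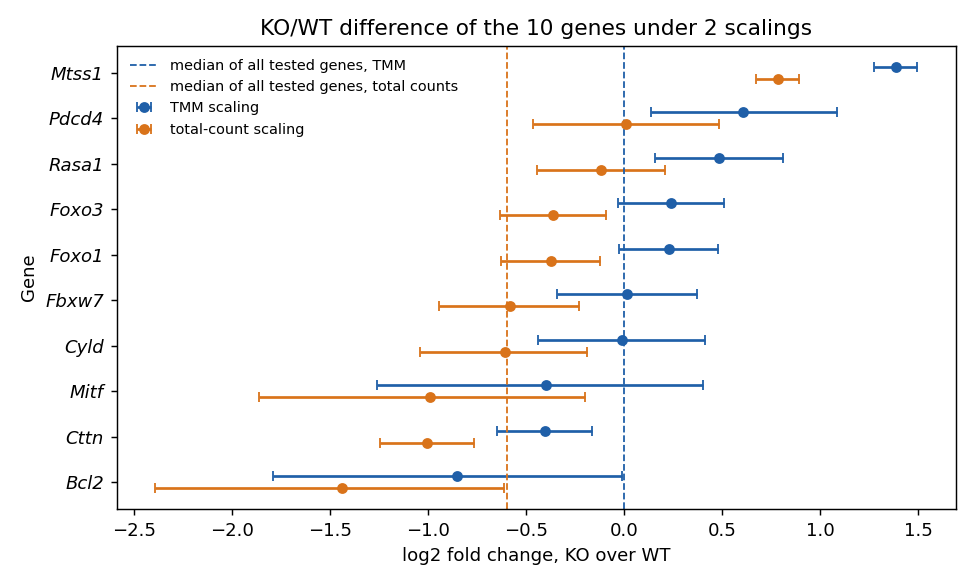
Log2 fold change, KO over WT, of the 10 genes with 95% exact binomial intervals (counting error only) under TMM scaling (blue) and total-count scaling (orange); dashed lines mark the median of all tested genes under each. The order of the genes is the same under both, and Mtss1 is the gene whose interval lies above 0 under both, from 1.27 to 1.49 and from 0.67 to 0.89.

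Spread between animals cannot be measured from single libraries. With a biological coefficient of variation set by assumption in edgeR's exact test, *Mtss1* was the 1 gene of the 10 that passed at 0.1 (adjusted p = 5.06e-09) and at 0.2 (adjusted p = 0.0205). At 0.4 none passed by edgeR's exact test, and the adjusted p of each of the 10 was 1.

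Grouped by site, the 6 genes with an 8-base match had a median log2 fold change of 0.23, and of -0.37 with total counts. With TMM 4 of these 6 stood above 0. Past counting error 2 were higher and 1 lower, against 22.8% and 23.8% of all genes tested. The 3 with an m8 match at best had a median of -0.01, with 1 above 0. These groups hold too few genes for a test of their difference. Over all 12503 tested genes with an annotated 3′ UTR the class medians lay close together. The median log2 fold change was -0.01 for the 623 genes with an 8-base match (interquartile range -0.38 to 0.39), -0.02 for the 873 with an m8 match, 0.01 for the 945 with an A1 match, 0.01 for the 1717 with a 6-base match, and -0.01 for the 8345 with none. Of the genes with an 8-base match 49.4% stood above 0, and of those without a match 49.2%.

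Genes with several matches were read next. The 35 tested genes with at least 2 8-base matches, *Foxo3* and *Rasa1* among them, had a median of 0.05, and 54.3% stood above 0. The 121 genes with at least 3 matches of 7 or 8 bases, *Mtss1* among them, had a median of 0.05 as well. Past counting error 28 of them were higher and 22 lower, against 22.8% and 23.8% of all genes tested. Genes with an 8-base match had longer UTRs than genes without a match, with medians of 2480 and 779 bases. Within the quintile with the longest UTRs the medians were 0.04 for 304 genes with an 8-base match and -0.03 for 803 without a match. For the sister miRNAs the medians were -0.01 for 353 genes with an 8-base match to miR-96-5p and -0.11 for 235 genes with one to miR-183-5p. The forms TGCCAAA and TGCCAA are shared by miR-182-5p and miR-96-5p. The classes without a match are therefore the same 8345 genes for both, and the 2 comparisons are not independent. An 8-base or A1 match to one always holds a match of at least 7 bases to the other. For this reason 7 of the 10 mRNAs also held a match of 7 or 8 bases to miR-96-5p. It was an 8-base match in *Foxo1*, *Mitf* and *Mtss1*.

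**Figure D4:**
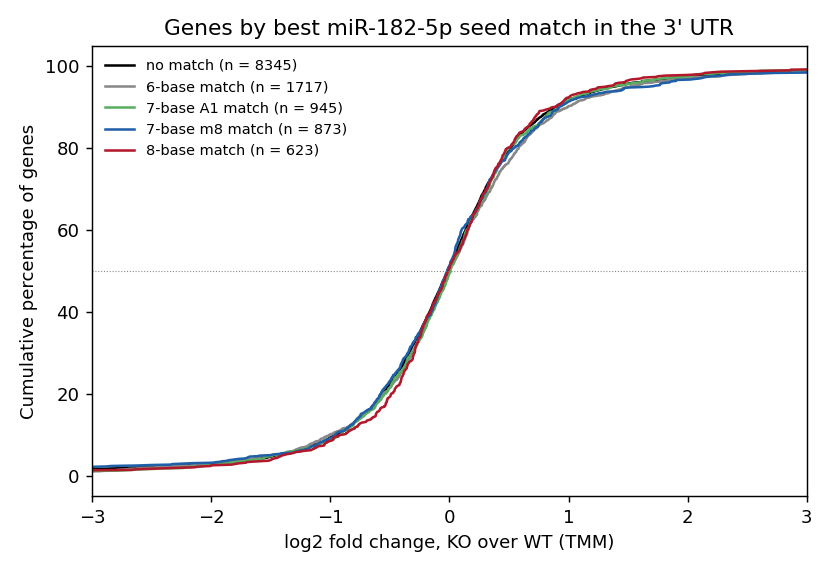
Cumulative percentage of tested genes (vertical axis) by log2 fold change, KO over WT, with TMM (horizontal axis, shown from -3 to 3), for genes grouped by their best miR-182-5p seed match in the longest 3′ UTR. The 5 curves run on top of each other, with medians between -0.02 and 0.01.

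A further 19 genes that have been published as targets of miR-182 were listed from general knowledge, without a check of each source, and 16 of them were tested. Their median log2 fold change was -0.08, with 6 above 0. Past counting error 5 were higher and 5 lower, against 22.8% and 23.8% of all genes tested. With total counts 2 were higher and 10 lower, against 6.47% and 58.2% of all genes. *Sesn2*, which encodes a stress-induced inhibitor of mTORC1, had 136 KO and 144 WT counts (log2 fold change 0.51). *Adcy6*, an adenylyl cyclase, had 368 and 407 counts (0.45). With total counts they stood at -0.09 and -0.15. Both carry an 8-base match, as 8 of the 16 do. The median of these 8 was 0.29, with 5 above 0. With total counts their median was -0.31, where that of all genes was -0.60.

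*Thbs1*, the matricellular activator of TGF-β, was at least 2-fold higher, with 42 KO and 18 WT counts (1.78, interval 0.99 to 2.70). At least 2-fold lower were *Ndrg1*, a hypoxia-induced gene, with 90 and 307 counts (-1.17), and *Timp2*, a metalloproteinase inhibitor, with 19 and 60 counts (-1.05). *Trp53inp1*, a p53-induced gene with an 8-base match, was close to this limit, with 177 and 529 counts (-0.99). The 16 genes thus spread to both sides, as the 10 did.

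The genes that FoxO factors are known to activate did not move one way. Of 20, 6 were higher and 8 lower past counting error, against 22.8% and 23.8% of all genes tested, and the median was -0.16. The gluconeogenic *Pck1* had 15078 KO and 16220 WT counts (log2 fold change 0.49, and -0.11 with total counts), and *G6pc* had 2536 and 3064 (0.32, and -0.28 with total counts). With total counts no FoxO target was higher past counting error by the exact binomial test and 18 were lower. Among all genes 6.47% were higher and 58.2% lower in that scaling. *Pdk4*, which spares glucose by inhibiting pyruvate dehydrogenase, was lowest, with 15 and 221 counts (-3.25, interval -4.15 to -2.54). *Bcl6*, a repressor of lipid genes, had 219 and 705 counts (-1.09), and *Cited2*, a CBP/p300-binding coregulator, had 53 and 180 (-1.17). *Irs2* and *Fbxo32*, named after their values were seen, had 3 counts each in the KO library against 18 and 17. *Gadd45a*, a growth arrest gene, had 25 and 16 counts (1.21), and it shares exonic bases with a transcript on the other strand.

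Lists of genes related to the other targets were counted in the same way. The shares of all genes tested to set beside them are 22.8% higher and 23.8% lower. Of 8 genes for Ras and for GTPase-activating proteins related to Rasa1, 2 were higher and 3 lower past counting error. *Nf1*, encoding neurofibromin, had 111 and 82 counts (1.02), while *Rasa3* had 35 and 156 (-1.55) and *Nras* 56 and 432 (-2.35). Among the 13 genes of the Bcl2 family besides *Bcl2*, 1 was higher and 6 lower, with *Bmf*, a pro-apoptotic member, at 35 and 23 counts (1.18). *Bcl2a1b*, at 3 and 20 counts, shares 78.7% of its 51-base words with other genes and is uncertain. *Pmaip1*, named after its values were seen, had 0 and 18 counts. Its fitted value depends on the prior count and is not read further.

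The next lists are also to be read beside 22.8% of all genes tested higher and 23.8% lower. Among 10 partners and regulators of Cyld and NF-κB signaling 6 were higher and 2 lower past counting error, with a median of 0.48. *Tnfaip3*, which encodes the ubiquitin-editing inhibitor A20, had 28 and 6 counts (2.70), and *Spata2*, which links Cyld to its receptor complex, had 87 and 48 (1.44) and shares exonic bases with *Rnf114* on the other strand. With total counts 2 of the 10 were higher and 5 lower, against 6.47% and 58.2% of all genes. Of 12 tested components and substrates of the SCF ligase that holds Fbxw7, 1 was higher and 4 lower, with the substrates *Myc* and *Jun* at -0.88 and -0.84. Of 13 partners of cortactin and Mtss1 in branched actin 3 were higher and 2 lower, and the closest relative of *Mtss1*, *Mtss1l*, had 56 and 48 counts (0.81). Of 5 partners of Pdcd4 2 were higher and 1 lower, and *Eif4a1*, the helicase it inhibits, had 506 and 1230 counts (-0.69). Of 3 relatives of *Mitf* 1 was higher, and of 10 tested genes for FoxO relatives and the enzymes that modify them 1 was higher and 2 lower. Of 11 genes of the miRNA machinery 5 were higher and 4 lower, with *Ago2*, the slicing Argonaute, at 58 and 176 counts (-1.004). With total counts none of the genes for SCF components, actin partners, Pdcd4 partners, *Mitf* relatives, FoxO relatives, the Bcl2 family or the miRNA machinery was higher past counting error by the exact binomial test. Among all genes 6.47% were.

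**Figure D5:**
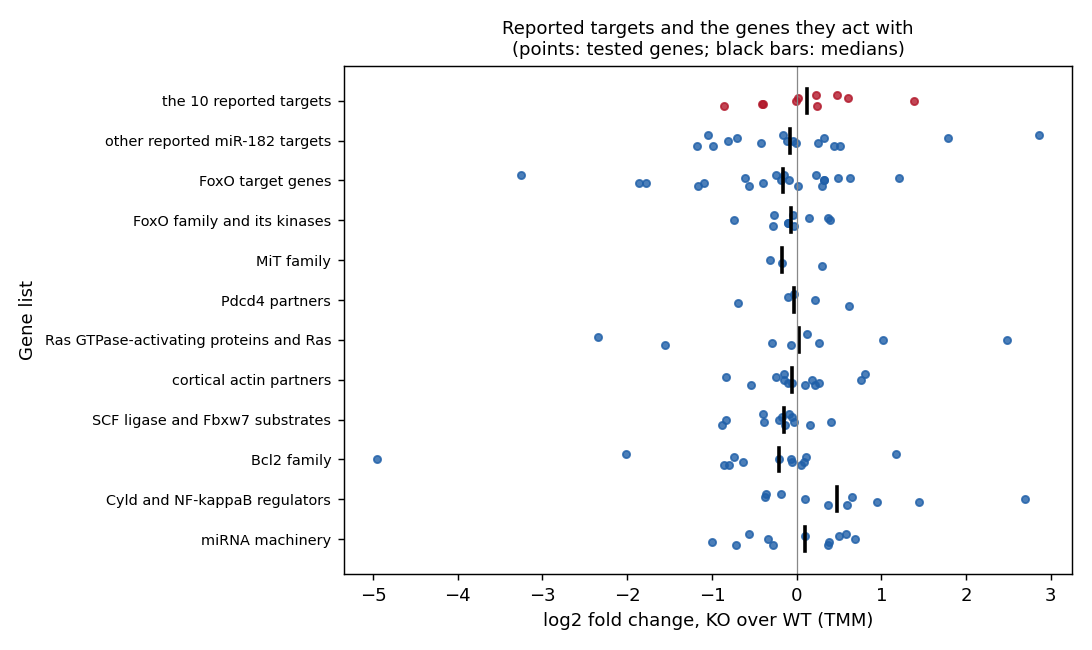
Log2 fold change, KO over WT with TMM (horizontal axis), of each tested gene (points) in the 10 reported targets (red) and in the lists of related genes (blue), with the median of each list as a black bar. The medians lie between -0.21 and 0.48, and each list but the 3 MiT relatives spreads over more than 1 unit; the point at -4.95 is Pmaip1, which had 0 counts in the KO library.

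The libraries also differed in markers of cell types, which bears on genes expressed outside hepatocytes. In bulk tissue, fewer cells of a type and less RNA per cell cannot be told apart. Hepatocyte markers were abundant in both, with 339876 and 536544 counts for *Alb* (log2 fold change -0.07). Of 8 hepatocyte markers 3 were higher and 4 lower past counting error. With total counts 8 were lower, where 58.2% of all genes were. Markers of stellate cells were lower in the KO library past counting error for 7 of 10 (summed CPM 125 against 184), of Kupffer cells for 5 of 8 (135 against 179), and of endothelial cells for 3 of 8 (88.0 against 107). *Lrat* of stellate cells had 45 and 126 counts, and *Clec4f* of Kupffer cells 600 and 1108. The 3 lower endothelial markers were *Lyve1*, at 4 and 45 counts (-2.78), *Clec4g*, at 138 and 323 (-0.63), and *Kdr*, at 80 and 172 (-0.51). *Stab2* of sinusoidal endothelium did not pass, with 318 and 476 counts (0.01, interval -0.20 to 0.22). Of all genes tested, 22.8% were higher and 23.8% lower, and the shares of the endothelial, neutrophil and lymphocyte lists rest on few genes beside these. Proliferation markers were lower for 8 of 9 (204 against 345), with *Mki67* at 973 and 1989 counts. Cholangiocyte markers were higher for 3 of 5 tested (*Spp1*, *Krt19* and *Krt7*). With total counts 1 was higher and 2 lower, against 6.47% and 58.2% of all genes. Their summed CPM of 164 against 125 was mostly that of *Spp1* (152 against 116), which had 1638 and 1875 counts. *Krt19* had 26 and 7 counts, *Krt7* 15 and 6, and *Epcam* 11 and 15. *Sox9* pointed the other way, with 69 and 129 counts (-0.31). Neutrophil markers were higher for 1 of 4 tested (44.1 against 37.6) and lymphocyte markers for 1 of 3 (2.23 against 1.60), both for 0 with total counts, with *Ly6g* at 0 counts in both libraries and *Cd3e* at 0 in the KO library. The part of these differences in the values of *Cttn*, *Bcl2*, *Mitf* and *Mtss1* was not tested.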

How the data were processed

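RNA-seq of mouse liver was analysed, with 1 library per genotype taken from the labels. The authors deposited read counts per gene, not normalized, and FPKM, whose ratio to the counts follows the total count of each library. HISAT2 2.0.4, StringTie and edgeR are named in the submitters' processing notes, and the annotation is not given in the sources used here. The notes list a human build, but the identifiers and coordinates are those of mouse, and 34267 of 34745 identifiers are in GENCODE M21 (GRCm38). The table's coordinates of *Pdcd4*, *Rasa1* and *Mtss1* differ from those of M21.

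Counts were scaled by TMM (factors 0.812 for KO and 1.23 for WT; edgeR 4.0.16, R 4.3.3), and other steps used Python 3.11.15, scipy 1.17.1 and matplotlib 3.10.9. CPM use the TMM-scaled library size, so that 1 count is 0.0930 CPM in the KO and 0.0617 in the WT library. Intervals cover counting error only. Alternatives were total counts, DESeq2 1.42.0 size factors, the upper quartile, FPKM on the log2(value + 0.1) scale, 5 as prior count, other count minimums and assumed coefficients of variation. The rule named the 10 genes and, of each list, at most 6 by size that passed the test with a 2-fold difference and at least 20 counts in the higher library, with *Alb* and defining markers. The 10 genes and the lists were chosen with earlier results of these data known. *Sesn2*, *Adcy6*, *Trp53inp1*, *Pck1*, *G6pc*, *Myc*, *Jun*, *Mtss1l*, *Eif4a1*, *Clec4g*, *Kdr*, *Spp1*, *Krt7*, *Epcam* and *Sox9* were named outside it, after their values were seen. The lists were written from general knowledge, and some of their genes are not reported by name here.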

Additional observations from a re-analysis of the deposited data

How the results depend on the processing

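No paired analysis was possible because there is only 1 library of each genotype, which also leaves no replicate to omit. With total counts 0 of the 10 genes were at least 2-fold higher and 2 at least 2-fold lower (*Cttn* and *Bcl2*), 1 was higher and 7 lower past counting error, and the medians were -0.48 for the 10, -0.61 for genes with an 8-base match and -0.67 for the other reported targets. This follows from the shift of all genes by 0.60. The authors' FPKM, which rest on the same scaling, gave 0 genes at least 2-fold higher and medians of -0.45, -0.52 and -0.58, and they allow no counting test. With total counts *Foxo1* (-0.37), *Foxo3* (-0.36), *Rasa1* (-0.12) and *Fbxw7* (-0.58) fell below 0, as they did with FPKM, where *Rasa1* stood at -0.11. An assumed coefficient of variation of 0.1 or 0.2 gave 1 gene higher and 0 lower, while 0.4 gave 0 in both directions. *Pdcd4* (0.52) missed the threshold, with adjusted p = 0.0610 from the exact binomial test, when the mitochondrial genes were left out of the totals, where the median of the 10 was 0.03, that of all genes -0.09, and 5 of the 10 stood above 0. The upper quartile, DESeq2's size factors, 5 as prior count and minimums of 1 or 50 counts left every count of higher and lower genes among the 10 within 1.5 times its value. The median of genes with an 8-base match lay at -0.01 with any annotated 3′ UTR and with at least 200 counts, and genes with 7-base matches had a median of -0.004.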
